A study of Mus musculus with 2 samples.

Results

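The cells described here were the Mfap5 and Prg4 expressing, fascia-like fibroblasts of mouse back skin wounds, 957 of the 15514 cells kept from 2 single-cell RNA libraries. Kept cells had at least 500 genes and at most 6% of UMIs (unique molecular identifiers, each counting 1 captured RNA molecule) from mitochondrial genes. A fibroblast gate then asked for at least 2% of UMIs from Col1a1, Col1a2, Col3a1 and Dcn together, at most 1 Rgs5 UMI, no Pecam1 UMI, under 5 Lyz2 UMIs, under 0.5% of UMIs from Krt5 and Krt14, and under 2 Crabp1 UMIs. Of the 2931 cells inside the gate, members had at least 5 UMIs of Mfap5 and Prg4 together, and more than 2 times as many of these as of Gpnmb and Coch. Other fibroblasts serve for comparison, 1025 Gpnmb Coch fibroblasts, chosen by the mirror image of that rule, and 317 Crabp1 fibroblasts, which met every other gate condition but carried at least 5 Crabp1 UMIs. Another 949 gate cells, 861 in the library labelled PBS and 88 in the library labelled DTX, met neither rule and entered no comparison of genes.

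Both libraries came from C57BL/6 mice labelled Mrc1-DTR, aged 7 to 9 weeks, with wound bed and back skin taken 5 days after wounding and live cells sorted by exclusion of the dye 7AAD. In this line the receptor for diphtheria toxin is driven by Mrc1, the gene of the macrophage mannose receptor CD206, so that toxin kills cells that use this gene. One library is labelled as treated with PBS (phosphate-buffered saline) and the other as treated with diphtheria toxin (DTX), and each pooled 3 mice by the study's methods. The methods name wild-type mice given toxin as controls, whereas the labels give Mrc1-DTR to both libraries. With 1 library per group there was no replicate and no test between the libraries, and every interval below is an exact 95% interval that covers counting error only.

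Mrc1, the gene the model acts on, was not lower in the library labelled DTX. Outside the fibroblast gate it stood at 306 CPM (UMIs of a gene per 1000000 UMIs of the set, not scaled by transcript length) in the library labelled DTX, with a UMI in 53.7% of 6666 cells, and at 102 CPM in the library labelled PBS, with a UMI in 30.5% of 5600 cells. Among cells outside the gate with at least 2 UMIs of the macrophage genes Adgre1 and Csf1r together, 69.9% of 4339 carried a Mrc1 UMI in the library labelled DTX and 72.0% of 1802 in the library labelled PBS. The share of such cells with a Mrc1 UMI was thus close in both libraries. The higher level outside the gate went with a larger number of macrophage-type cells in the library labelled DTX. Within these cells Mrc1 was also higher there, at 419.9 CPM (413.2 to 426.7) against 362.5 CPM (352.4 to 372.9) in the library labelled PBS. Each direction below is given by label only. The cell numbers that the study states for its groups equal the barcode numbers of these files with the groups exchanged. Other features ran the way of the labels as given. The fibroblast gate held 30.1% of kept cells in the library labelled PBS and 5.91% in the library labelled DTX. Macrophage-type cells were 1802 of 5600 and 4339 of 6666 cells outside the gate. The study reports fewer fibroblasts and a larger part of immune cells in its Mrc1-DTR wounds. Neither Mrc1 nor the cell numbers alone show an exchange of labels, and the question was not settled here. No direction between the libraries can therefore be read as an effect of the toxin. The fascia-like cells themselves had almost none, with 29 Mrc1 UMIs over 730 cells of the library labelled PBS and 4 over 227 cells of the library labelled DTX. Both libraries shared 37 barcodes, none of them between members, and 4 members carried a barcode that also occurred in the other library.

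Skin rests on a sheet of loose connective tissue, the subcutaneous fascia, whose fibroblasts can enter a wound and help to build its provisional matrix. Fibroblasts of this layer and of the space around vessels share a set of genes, among them Pi16, Dpp4, Cd34 and Ly6a, that is often called universal. Mfap5 encodes a glycoprotein of elastin-associated microfibrils, and Prg4 encodes lubricin, a mucin-like proteoglycan that lets tissue surfaces glide. Sfrp2 is a secreted Wnt modulator, Ptx3 a pattern-recognition molecule that also stabilises hyaluronan matrix, and Plac8 a small cysteine-rich protein. In GRCm38, the build of the GENCODE annotation used, these genes lie at chr6:122505845-122529290 (Mfap5), chr1:150449412-150466165 (Prg4), chr3:83766321-83774316 (Sfrp2), chr3:66219910-66225805 (Ptx3) and chr5:100553725-100572245 (Plac8).

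The members were deeply sequenced relative to their library. Their median was 15004 UMIs and 3278 genes per cell in the library labelled PBS, and 16793 UMIs and 3390 genes in the library labelled DTX, against 11317 and 11914 UMIs in the Gpnmb Coch fibroblasts. The median share of mitochondrial UMIs was 2.95% and 3.63%, and that of ribosomal protein genes 16.5% and 13.6%. Summed over members, 11336936 UMIs stood behind the levels of the library labelled PBS, more than in the other, so that its values are the more precise.

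The members made up a larger part of the gated fibroblasts in the library labelled DTX, and a smaller part of all its cells. They were 730 of 2506 gate cells in the library labelled PBS, a share of 29.1% (interval 27.4 to 31.0%), and 227 of 425 in the library labelled DTX, a share of 53.4% (48.5 to 58.2%). Of all kept cells they were 8.77% (8.17 to 9.40%) and 3.16% (2.77 to 3.59%). The fibroblast gate as a whole held 30.1% of kept cells in the library labelled PBS and 5.91% in the library labelled DTX. The Gpnmb Coch fibroblasts went from 11.0% to 1.53% of kept cells, and for each of them there were 0.798 members in the library labelled PBS and 2.06 in the library labelled DTX. These shares also depend on what the tissue digestion and the live sort released, which was not tested.

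**Figure D1:**
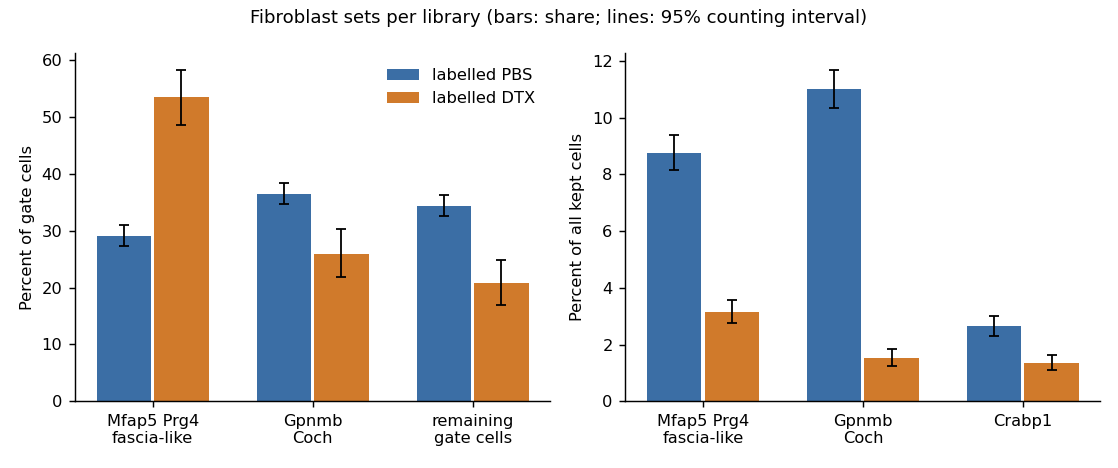
Percent of gate cells (left) and of all kept cells (right) in each fibroblast set, with bars for the library labelled PBS (blue) and DTX (orange) and lines for exact 95% counting intervals. The fascia-like set is 29.1% and 53.4% of gate cells, but 8.77% and 3.16% of kept cells.

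The genes of the rule describe the choice and support nothing. Members had a median of 26 Mfap5 and Prg4 UMIs together in the library labelled PBS and 33 in the library labelled DTX, with a median of 0 Gpnmb and Coch UMIs in both. Mfap5 stood at 1284 and 1014 CPM, and Prg4 at 782 and 1301 CPM. Both RNAs were found in 77.8% of members of the library labelled PBS and 88.1% of the library labelled DTX, so most members carried the pair and not 1 of them alone. Another 179 and 27 gate cells had at least 5 UMIs of the pair but too many of Gpnmb and Coch. Near the threshold, 34 and 9 members had only 5 or 6 UMIs of the pair, with Sfrp2 at 353 and 194 CPM, Plac8 at 280 and 751 CPM and Pi16 at 280 and 524 CPM. Gate cells just outside, with 3 or 4 UMIs and too few in number for precise levels (35 and 5 cells), had Sfrp2 at 228 and 86.3 CPM, Plac8 at 449 and 173 CPM and Pi16 at 349 and 17.3 CPM. Ptx3 was at 1146 and 4723 CPM inside and 1415 and 4330 CPM outside, and Thbs4 at 188 and 125 CPM inside and 64.1 and 1328 CPM outside. Sfrp2 was thus lower outside in both libraries, and the other genes differed across the threshold in opposite directions in the libraries.

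The 3 markers that the rule did not use were high in members of both libraries. They were chosen with earlier results of these data known, so their levels are a description and no independent check of the label. Sfrp2 was at 901 CPM in members of the library labelled PBS and 830 CPM in the library labelled DTX, against 7.92 and 14.7 CPM in the Gpnmb Coch fibroblasts and 154 and 333 CPM in the Crabp1 fibroblasts. Plac8 was at 638 and 739 CPM in members, 12.1 and 47.7 CPM in Gpnmb Coch and 37.5 and 103 CPM in Crabp1 fibroblasts. Ptx3 was at 2341 and 3564 CPM in members, 708 and 349 CPM in Gpnmb Coch and 123 and 415 CPM in Crabp1 fibroblasts. All 3 were thus highest in the fascia-like cells among these fibroblast sets. Plac8 was not particular to fibroblasts, since cells outside the gate of the library labelled DTX held it at 1315 CPM. After every cell was thinned to 2000 UMIs, which left out 2 members, Plac8 was found in 57.0% and 60.4% of members, Sfrp2 in 53.3% and 39.6% and Ptx3 in 63.0% and 71.8% (82.6% and 90.7%, 72.7% and 60.8%, and 82.5% and 88.1% before thinning). Keratinocytes, which should lack these genes, had them in 0.606%, 1.82% and 0% of 165 cells in the library labelled PBS and in none of 16 in the library labelled DTX, at medians of 14084 and 15988 UMIs before thinning.

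Differences from the Gpnmb Coch fibroblasts were counted where the log2 ratio of levels, with 1 CPM added to each, was at least 1 in the same direction in both libraries, for genes with at least 50 UMIs over both sets in each library. Of 7201 such genes outside the rule, 370 were higher in the fascia-like cells (5.14%) and 241 were lower (3.35%). With 10 CPM added in place of 1 these counts were 237 and 160, and with a minimum of 200 UMIs 193 and 107. Over all genes the median was 0.11 in the library labelled PBS and 0.02 in the library labelled DTX. These figures are the background for the gene groups that follow, and none of the counts is a test.

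Genes of the fascia and universal fibroblast list were frequent among the higher ones. Of its 24 genes, 9 were higher in both libraries and 1, Pcolce2, an enhancer of procollagen processing, was lower, with medians of 1.05 and 0.97. The markers above were among the 9, and they were chosen with earlier results of these data known. The others were the surface peptidase Dpp4, the stromal glycoprotein Cd248, the guidance cue Sema3c, the annexin Anxa3, the growth factor carrier Igfbp6 and the imprinted gene Mest. Dpp4 was at 115 CPM in members of the library labelled PBS and 76.6 CPM in the library labelled DTX, against 53.8 and 19.8 CPM in the Gpnmb Coch cells. Pi16, a secreted peptidase inhibitor that marks universal fibroblasts, was at 863 and 1016 CPM in members, and at 167 and 512 CPM in the Gpnmb Coch cells. Its ratio of 0.99 in the library labelled DTX fell just short of the threshold, as did those of Cd34 and Ly6a, both higher in members but by less than 1 on the log2 scale. The universal genes were therefore shared in part, while Sfrp2, Plac8 and Anxa3 separated the sets by far more.

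The genes that separated the sets most widely were of several kinds and were not counted as a group. By the ratio nearest to 0 of both libraries, the 15 highest were Thbs4, Sfrp2, H19, Ptgis, Plod2, Akr1c18, Gdf10, Ptn, Chrdl1, Cxcl13, Spp1, Bmper, Bnc2, Hmcn2 and Loxl3. Thbs4, a thrombospondin of tendon and injured tissue, was at 204 and 330 CPM in members and at 0.754 and 2.20 CPM in the Gpnmb Coch cells. Ptgis, the prostacyclin synthase, was at 134 and 150 CPM in members and at 0.754 and 0.733 CPM in the Gpnmb Coch cells. Plod2, a lysyl hydroxylase that shapes collagen cross-links, was at 101 and 110.0 CPM in members against 0.754 and 2.20 CPM. Each of these RNAs was close to absent from the Gpnmb Coch cells in both libraries. Gdf10, Chrdl1 and Bmper, which belong to or bind the BMP family of growth factors, and Ptn, a heparin-binding growth factor, followed at 35.9 to 133 CPM in members of the library labelled PBS and at most 4.43 CPM in its Gpnmb Coch cells. Thbs4 was unevenly spread, with a UMI in 15.2% of members of the library labelled PBS and 22.9% of the library labelled DTX, and the 10 richest cells held 48.1% and 75.1% of its UMIs.

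Against the Crabp1 fibroblasts the 10 highest genes by the same rule were Sfrp4, Hmcn2, Mgp, Reg1, Lbp, Chrdl1, Thbs4, Reg3g, Hp and Cygb. Mgp, an inhibitor of calcification, was at 1019 and 1433 CPM in members, 53.1 and 6.71 CPM in the Crabp1 cells and 45.2 and 219 CPM in the Gpnmb Coch cells. Sfrp4, a second secreted Wnt modulator, was at 153 and 177 CPM in members and at 5.31 and 1.22 CPM in the Crabp1 cells. Thbs4, Chrdl1 and Hmcn2 stood out against both other fibroblast sets.

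**Figure D2:**
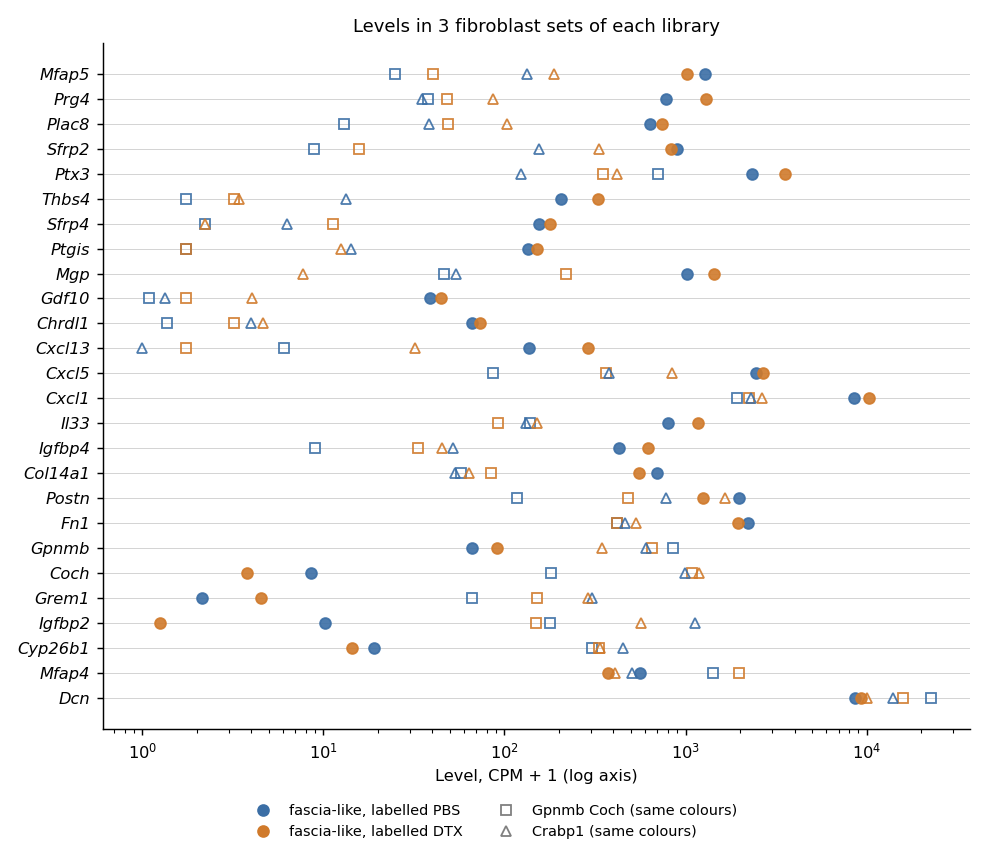
Levels (CPM plus 1, log axis) of 26 genes in the fascia-like (filled circles), Gpnmb Coch (squares) and Crabp1 (triangles) fibroblasts of the libraries labelled PBS (blue) and DTX (orange). Sfrp2, Plac8, Thbs4, Sfrp4 and Ptgis lie to the right in the fascia-like cells of both libraries, while Grem1, Igfbp2 and Cyp26b1 lie to the left.

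The fascia-like fibroblasts carried high levels of chemokine and cytokine RNA. Of 22 genes measured in that list, 13 were higher than in the Gpnmb Coch cells in both libraries and 2 were lower, with medians of 1.61 and 1.82. The neutrophil attractant Cxcl1 reached 8534 CPM in members of the library labelled PBS and 10376 CPM in the library labelled DTX, against 1916 and 2239 CPM in the Gpnmb Coch cells. Cxcl5, of the same family, was at 2451 and 2682 CPM in members and at 85.1 and 362 CPM in the Gpnmb Coch cells. Il6, the acute inflammatory cytokine, was at 623 and 1074 CPM against 197 and 241 CPM, and the alarmin Il33 at 803 and 1173 CPM against 138 and 91.6 CPM. The colony-stimulating factors Csf2 and Csf3 and the cytokines Il11 and Tslp went the same way, and so did Cxcl2, Cxcl9, Cxcl10, Cxcl13 and Cxcl14. The 2 lower genes were Ccl8, which attracts monocytes and stood at 410.0 and 303 CPM in members against 1660 and 784 CPM, and Ccl19, whose counts are uncertain since the genome holds near-identical copies of it. Ccl2, which recruits monocytes, was about as abundant in both sets of the library labelled PBS, at 9191 and 8849 CPM, and was at 10632 and 5435 CPM in the library labelled DTX. The cytokine genes were thus mostly, but not all, on the fascia-like side.

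Interferon-stimulated genes were a second immune group on the fascia-like side. Of 24 measured, 7 were higher in both libraries and 0 lower, with medians of 0.58 and 1.18. The 7 were Isg15, a ubiquitin-like modifier, the antiviral genes Rsad2 and Oasl2, the deconjugating enzyme Usp18, the transcription factor Irf7, the virion tether Bst2 and Ifi27l2a. Ifi27l2a was at 947 and 1154 CPM in members and at 37.4 and 210 CPM in the Gpnmb Coch cells. Bst2 was at 371 and 517 CPM against 144 and 225 CPM, and Isg15 at 195 and 212 CPM against 87.4 and 71.8 CPM. Irf7 was at 96.4 and 104 CPM against 22.5 and 30.1 CPM, and the listed genes beyond these 7 did not pass in both libraries.

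Because these genes differed together, their promoters (250 bases before the RefSeq start, GRCm38.p6) were searched on both strands for the interferon-stimulated response element, which reads GAAA, any 2 bases, GAAA. It was present in 12 of the 23 listed genes with a promoter sequence (52.2%), against 3.46% of 27025 genes in all, and in 3 of the 5 called genes that had one. The sites of these 3 are shown 5′ to 3′ on the gene's strand, with the matching letters in capitals, for Isg15 at chr4:156200877-156200906, Rsad2 at chr12:26456553-26456582 and Bst2 at chr8:71537583-71537612. A match is a description of the sequence and no evidence of binding in these cells.
Isg15: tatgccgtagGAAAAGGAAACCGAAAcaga
Rsad2: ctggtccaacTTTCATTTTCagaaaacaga
Bst2: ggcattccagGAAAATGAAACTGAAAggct
In Rsad2 the element reads on the opposite strand, whereas in Isg15 and Bst2 overlapping copies run together.

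Matrix genes split by kind. Of 18 genes of provisional matrix and myofibroblasts, 7 were higher in both libraries, the contractile genes Acta2, Myl9 and Tpm2 and the wound matrix genes Postn, Fn1, Cthrc1 and Fap, and 3 were lower (Thbs2, Tgfbi and Ccn1, listed as Cyr61), with medians of 1.75 and 0.47. Fn1, fibronectin, was at 2207 and 1956 CPM in members against 419 and 416 CPM in the Gpnmb Coch cells. Postn, periostin, was at 1976 and 1254 CPM against 116 and 483 CPM, so its gap was much smaller in the library labelled DTX. Of 16 collagens, 4 were higher (Col5a3, Col8a1, Col12a1 and Col14a1) and 1, the anchoring fibril collagen Col7a1, was lower, while the bulk collagen Col1a1 was at 11135 and 10380 CPM in members against 18637 and 16560 CPM. Of 19 genes of microfibrils and elastic fibres, 2 were higher, Efemp2 and Emilin2, and 4 were lower, Mfap4, Fbln5, Ltbp1 and Ltbp2, with medians of 0.38 and 0.30, above those of all genes. Mfap4, a microfibril partner of the elastic fibre, was at 563 and 374 CPM in members against 1419 and 1976 CPM.

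Protease genes differed in both directions. Of 21 genes of matrix proteases and their inhibitors, 8 were higher in members (Mmp9, Timp1, Adamts1, Adamts5, Adam12, Plau, Plat and Serpine2) and 2 lower (Mmp11 and Adamts4), with a list median of 0.60 in the library labelled PBS and -0.06 in the library labelled DTX. Timp1, the metalloproteinase inhibitor, was at 2883 and 3639 CPM against 1223 and 1398 CPM. Adamts5, an aggrecanase that cleaves versican, was at 319 and 431 CPM against 94.5 and 91.6 CPM.

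Growth factor and morphogen genes divided between the sets. Of 21 genes of the PDGF and growth factor list, 6 were higher in members (Pdgfa, Pdgfc, Igfbp4, Ereg, Areg and Vegfd) and 1, Igfbp2, was lower. Pdgfa, a ligand of the PDGF receptor alpha, was at 30.4 and 35.2 CPM against 3.49 and 3.67 CPM, while Pdgfra, that receptor, was at 89.8 and 104 CPM against 149 and 109 CPM. Of the TGF-beta and BMP list 0 of 20 genes were higher and 4 were lower, the receptor Tgfbr1, the activin subunit Inhbb and the BMP antagonists Grem1 and Nbl1, with medians of -0.59 and -0.46. Grem1 was nearly absent from members, at 1.15 and 3.54 CPM against 65.4 and 149.5 CPM. In the Wnt list, Wnt2, Sfrp2, Sfrp4 and Ccn4 (listed as Wisp1) were higher and the modulators Dkk2 and Rspo1 lower.

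The 10 genes lowest in members against the Gpnmb Coch fibroblasts were Grem1, Igfbp2, Cyp26b1, Inhbb, Fam180a, Robo2, Mlana, Wfdc12, agouti (listed as a) and Ctla2a. Cyp26b1, which breaks down retinoic acid, was at 18.1 and 13.4 CPM in members against 303 and 334 CPM. Igfbp2, an insulin-like growth factor carrier, was at 9.26 and 0.253 CPM against 179 and 148 CPM. In the Crabp1 fibroblasts Igfbp2 stood at 1131 and 567.5 CPM, Cyp26b1 at 449 and 334 CPM and Grem1 at 302 and 289 CPM, so that these 3 RNAs were low in the fascia-like cells against both other sets. Of 7 genes of the upper dermis measured, 3 (Trps1, Twist2 and Col23a1) were lower in members and 0 higher. Of 7 measured genes of a Gpnmb fibroblast list, 2 (Postn and Cthrc1) were higher in members and 0 lower. That list summed to 4100 CPM in members against 2686 CPM in the Gpnmb Coch cells of the library labelled PBS. In the library labelled DTX it summed to 2997 against 4248 CPM. These sums, unlike the counts, hold Coch, a gene of the rule that chose both sets. They are thus fixed in part by that choice, and they went in opposite directions in the libraries.

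The cell cycle, acute phase and remaining lists were smaller or divided. Of 12 cell cycle genes 4 were higher (Ccnb2, Birc5, Cenpa and Stmn1) and 1, Ccnd1, lower, with medians of 0.74 and 0.31. In acute phase and complement genes 4 of 16 were higher (among them Hp, Cfb and Cd55) and 3 lower (C7, Masp1 and Serpina3n), with medians of 0.16 and 0.76. In each of 3 further lists 3 genes were higher and 0 lower: Has2, Ptx3 and Itih5 of 15 genes of hyaluronan and proteoglycans, Postn, Timp1 and Cish of 9 genes of the type 2 cytokine response, and Hmox1, Srxn1 and Sod3 of 15 antioxidant genes. In each of these 5 lists the part that was higher exceeded the 5.14% of all genes, on 3 or 4 genes each. Of 28 genes of glycolysis, hypoxia and mTORC1 signalling, 4 were higher (Slc2a1, Eno1, Slc16a3 and Slc7a11). No gene of 14 for cholesterol synthesis or of 13 p53 targets passed the threshold in either direction. In the IL-1 and TNF response 1 of 23 was higher, the IL-33 receptor gene Il1rl1 at 818 and 717 CPM in members against 189 and 253 CPM, and 1 was lower, the prostaglandin E synthase Ptges. The ligand Il33 and its receptor were thus both higher in members than in the Gpnmb Coch cells.

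The members were not uniform, and several gene groups differed along the balance of Prg4 and Mfap5. Cells with more Prg4 than Mfap5 UMIs were 223 of 730 members in the library labelled PBS (30.5%, interval 27.2 to 34.03%) and 108 of 227 in the library labelled DTX (47.6%, 40.9 to 54.3%). Median depth was close on both sides, 14120 against 15483 UMIs and 16376 against 17119 UMIs. Of 6287 genes with enough UMIs, 20 were higher on the Prg4 side by a log2 ratio of at least 1 in both libraries (0.318%) and 34 were higher on the Mfap5 side (0.541%), with medians over all genes of -0.15 and -0.10. This division was made after an earlier look at these data and rests on the genes of the rule, so it is a description.

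On the Prg4 side stood acute phase and complement genes. All 14 measured genes of that list had a ratio above 0 in both libraries, against 1102 of the 6287 genes, and 4 of them passed the threshold, Saa1, Lcn2, C3 and C4b, with list medians of 1.17 and 0.79. Lcn2, which binds bacterial iron carriers, was at 628 CPM on the Prg4 side and 47.8 CPM on the Mfap5 side of the library labelled PBS, and at 638 and 102 CPM in the library labelled DTX. C3, the central complement component, was at 3507 and 1433 CPM in the library labelled PBS and 4912 and 1606 CPM in the library labelled DTX. Saa3, a serum amyloid of inflamed tissue, was at 6274 and 1045 CPM and at 4156 and 2091 CPM, a ratio of 2.58 and 0.99. The highest genes of all on this side were Agt, the angiotensin precursor, Lcn2, Ctla2a and Cxcl13, the B cell attractant, followed by Tslp, Lbp, Il1r2, Saa1, C4b, C3, Myoc, Gas6, Slco2a1, Sned1 and Cadm3. Cxcl13 was at 403 CPM on the Prg4 side and 29.5 CPM on the Mfap5 side of the library labelled PBS, and at 507 and 95.9 CPM in the library labelled DTX.

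The promoters of the acute phase list were searched in the same way for the C/EBP element, spelled TTGCNNAA, because factors of that family are known regulators of acute phase genes. It was present in 5 of 12 listed genes with a promoter sequence (41.7%) and in 10.8% of all 27025 genes, and in each of the 3 called genes that had one. These sites lie at chr7:46743143-46743172 (Saa1), chr2:32387936-32387965 (Lcn2) and chr17:57228162-57228191 (C3), all on the minus strand and printed 5′ to 3′ along the gene with the match in capitals.
Saa1: tgtgctcccaTTGCACAAtgagggagaatg
Lcn2: gcccttcctgTTGCTCAAccttgcacagtt
C3: ggaaactatgTTGCGAAAttttgggcagtc
Use of these elements in the wound was not tested.

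On the Mfap5 side stood contractile and provisional matrix genes. Of 18 such genes measured, 15 had a ratio below 0 in both libraries, against 3152 of the 6287 genes, and 6 passed the threshold, Acta2, Tagln, Myl9, Tpm2, Postn and Lrrc15. Acta2, smooth muscle actin, was at 15.1 CPM on the Prg4 side and 264 CPM on the Mfap5 side of the library labelled PBS, and at 37.3 and 180 CPM in the library labelled DTX. Spp1, osteopontin, was at 8.93 and 164 CPM and at 85.0 and 725 CPM. The other genes that led on this side were Tagln, Thbs4, H19, Lrrc15, Cenpa, Tpm2, Tnfsf11, Col8a1, Ncam1, Postn, Akr1c18, Matn2 and Nt5dc2. Of 14 collagens, 12 had a ratio below 0 in both libraries, with Col8a1 past the threshold. The same promoters were searched for the CArG box, the element bound by serum response factor, spelled CC, 6 bases of A or T, GG. It was found in 2 of 14 promoters of this list (14.3%) and 1.62% of all. Of the 5 called genes that had a promoter sequence, 1 held it, Myl9. The exact letters were not in the window of Acta2, Tpm2, Postn or Lrrc15. Variants of the box with another base in the core were not searched, so this does not show that such boxes are absent there.

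**Figure D3:**
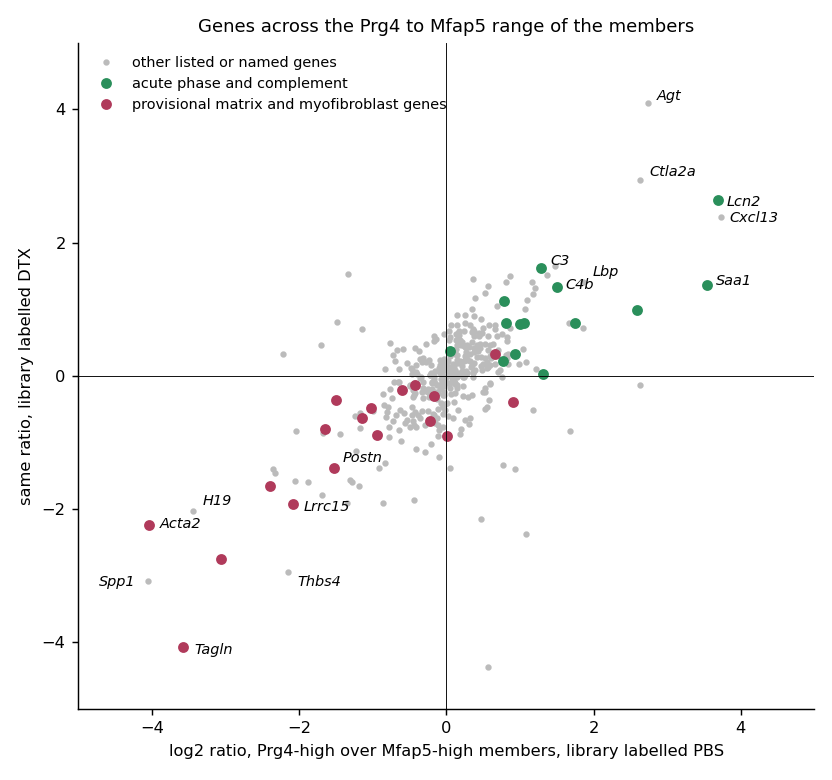
Each point is a gene, placed by its log2 ratio of levels in members with more Prg4 over members with at least as much Mfap5, in the library labelled PBS (x axis) and DTX (y axis). Acute phase and complement genes (green) lie up and to the right, and most provisional matrix and myofibroblast genes (red) lie down and to the left, with Acta2 at -4.04 and -2.24.

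Cells rich in the extreme genes were few. At least 5 Cxcl13 UMIs were found in 50 members of the library labelled PBS (6.85%) and 26 of the library labelled DTX (11.5%), and at least 5 Spp1 UMIs in 30 and 15 members. No member had both, which allows a share of up to 0.504% and 1.61% by the upper bound of the exact interval. Since the product of the shares comes to only 2.05 and 1.72 members, sets this small would hold few cells in common in any case. At least 5 Acta2 UMIs were found in 86 and 17 members and at least 5 Pi16 UMIs in 329 and 114, with 2 and 4 members meeting both conditions, where the product of the shares comes to 38.8 and 8.54. The Acta2-rich and Spp1-rich members were deeper than the rest, at medians of 19302 and 21902 UMIs in the library labelled PBS. The antimicrobial lectin genes Reg1 and Reg3g, together at 5 or more UMIs, were found in 21 and 10 members.

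Between the libraries few genes of the members were far apart. Of 9804 genes with at least 50 UMIs in members of both libraries together, 78 were higher in the library labelled DTX by a log2 ratio of at least 1 (0.796%) and 208 were lower (2.12%), and the median of all genes was 0.02. In direction alone 5221 of them had a ratio above 0 and 4583 one below. The counts depend on the treatment of low genes, being 18 and 70 with 10 CPM added and 28 and 78 with a minimum of 200 UMIs. The universal and fascia genes were close, with 0 of 24 higher, 1 lower and a median of 0.08. Sfrp2 had a log2 ratio of -0.12 (-0.18 to -0.06), Plac8 one of 0.21 (0.15 to 0.28) and Ptx3 one of 0.61 (0.58 to 0.64). Their differences were small beside those between the fibroblast sets.

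Epidermal genes led the lower ones, and keratinocyte RNA in the members differed between the libraries. The 14 keratinocyte markers hold Krt5 and Krt14, which the gate limits in both libraries. Of the 14 markers, 13 were lower in members of the library labelled DTX, with a median of -3.57. All 14 together summed to 1646 CPM in the library labelled PBS and 306 CPM in the library labelled DTX. Outside the gate their sums were 23574 and 3752 CPM, so that the libraries differed there in the same direction. The median was -1.58 without members over 0.2% keratinocyte UMIs, a limit set after seeing the data, -1.74 without the cells of highest doublet score and -2.38 with 10 CPM added. Sbsn was the most abundant, at 377 and 204 CPM, and no marker of the list was at 0. The medians per member were 0.0360% and 0.0129% of UMIs, and over 1% was found in 22 and 0 members. The 10 lowest genes were Cst6, Krt77, Defb6, Epcam, Krt15, Asprv1, Ly6g6c, Sprr1a, Fam25c and Calm4. Cst6, an epidermal protease inhibitor, was at 450.1 and 13.4 CPM, and the 10 richest cells held 85.4% of its UMIs in the library labelled PBS. Of the 208 lower genes, 146 (70.2%) had a higher level in keratinocytes than in members of the library labelled PBS, against 44.2% of all 9804 genes. Outside the gate 87.5% of them had a ratio of the same sign as in members, against 54.2% of all genes. Without the keratinocyte-rich members 106 genes were lower in place of 208, and without the cells of highest doublet score 103.

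Most acute phase and complement genes had a ratio above 0 in the library labelled DTX. Of 19 measured, 15 were higher and 4 lower in direction, where 5221 of all 9804 genes were higher, 3 passed the threshold upwards (among them Saa1 and Hp) and 2 downwards (Serpina3g and Orm1), of which Saa1 and Serpina3g have near-identical paralogs that make their counts uncertain, and the median was 0.36, against -0.14 in the Gpnmb Coch cells. Hp, haptoglobin, which binds free haemoglobin, was at 111 CPM (105 to 117) in the library labelled PBS and 352 CPM (334 to 371) in the library labelled DTX. Among the 10 highest genes stood also Vtn, vitronectin, an adhesive glycoprotein of plasma and matrix, at 8.03 CPM (6.46 to 9.86) and 53.1 CPM (46.2 to 60.8), with a UMI in 53 and 47 members. Vtn and Hp were higher in the Gpnmb Coch cells of the library labelled DTX too, by log2 ratios of 2.49 and 2.38. Within Prg4-side members alone the ratio of Hp was 0.87 and within Mfap5-side members 2.16, so it was higher on either side. Of the 15 genes of the list with at least 50 UMIs on each side, 10 had a ratio above 0 on the Prg4 side, with a median of 0.10, and 13 on the Mfap5 side, with a median of 0.27, against 3997 and 3802 of all 6781 genes and medians of 0.07 and 0.04. Saa3 had -0.59 (-0.63 to -0.56) on the Prg4 side and 1.00 (0.95 to 1.05) on the Mfap5 side, and Lcn2 0.02 (-0.08 to 0.13) and 1.08 (0.85 to 1.34). On the Prg4 side, where these genes were most abundant, the list was thus close to all genes.

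Of 25 chemokine and cytokine genes 5 were higher in the library labelled DTX (Cxcl13, Cxcl14, Csf2, Tnfsf11 and the same Ccl19 gene), 2 were lower (Ccl20 and Il34), and the median was 0.21. Cxcl14, a chemokine made by resting skin, was at 131 CPM (124 to 138) and 456 CPM (435 to 477), a log2 ratio of 1.79 (1.70 to 1.90). Csf2, the granulocyte-macrophage colony-stimulating factor, was at 57.3 and 122 CPM, a ratio of 1.08 (0.92 to 1.27). Tnfsf11, or RANKL, was at 9.26 and 26.8 CPM, and 10 cells held 89.6% of its UMIs in the library labelled DTX. Il6 and Il33 were under the threshold, with ratios of 0.79 (0.73 to 0.84) and 0.55 (0.50 to 0.60). Within the sides Cxcl13 had 0.33 (0.21 to 0.45) on the Prg4 side, where it was most abundant, and 1.67 (1.42 to 1.98) on the Mfap5 side, so that it passed the threshold on the latter only. The cytokine differences thus went in both directions and several rested on few cells.

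Among the 10 genes highest in the library labelled DTX were Vtn, Reg3g, Reg1, Spp1, Cxcl14, Hp, the water channel gene Aqp1, Gm2564 and Tnfsf11. Reg1 was at 36.5 and 141 CPM and Reg3g at 14.4 and 77.6 CPM, but a UMI of Reg1 was found in only 39 and 14 members and the 10 richest cells held 76.3% and 99.3% of them. On the Prg4 side Reg1 was lower in the library labelled DTX, at -1.98 (-2.80 to -1.41) on 155 and 21 UMIs, and on the Mfap5 side higher, at 2.95 (2.77 to 3.21), while Reg3g had 0.96 and 3.73. Spp1 was at 119 and 426 CPM, with a UMI in 87 and 40 members and 79.1% and 95.4% of UMIs in the 10 richest cells. When the 2% of members richest in each gene were left out, the ratios were 1.29 for Reg1, 1.67 for Reg3g and 1.93 for Spp1. Spp1 was also higher outside the gate in the library labelled DTX, at 864 CPM against 128 CPM, and the part of free RNA in its level was not tested. Aqp1 was at 8.64 and 28.3 CPM.

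**Figure D4:**
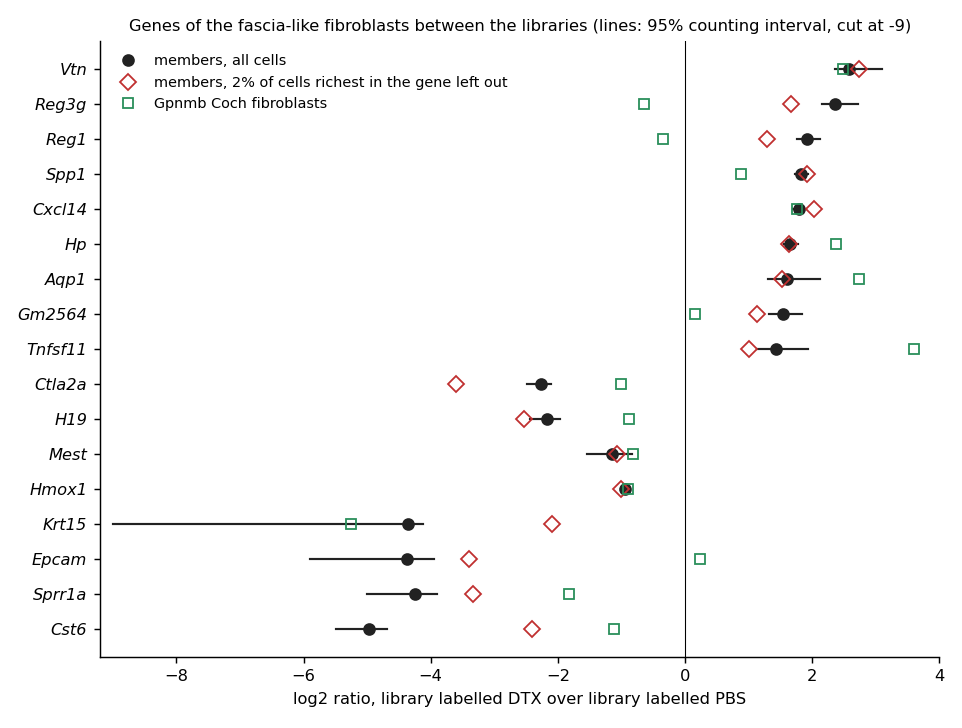
Log2 ratio of levels in the library labelled DTX over that labelled PBS for genes of the fascia-like fibroblasts (filled circles, with 95% counting intervals drawn to -9 at the lowest), without the 2% of members richest in the gene (diamonds), and in Gpnmb Coch fibroblasts (squares). Vtn, Cxcl14 and Hp lie above 1 in both fibroblast sets, whereas Reg1 and Reg3g lie above 1 in the fascia-like set and below 0 in the Gpnmb Coch set.

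Most myofibroblast and collagen genes had a ratio just below 0 in the members as a whole, but not on both sides. Of 18 provisional matrix and myofibroblast genes, 0 passed the threshold and 15 had a ratio below 0, against 4583 of all 9804 genes, with a median of -0.29, where the Gpnmb Coch cells had 0.16. Acta2 was at 193 and 113 CPM, a ratio of -0.76 (-0.92 to -0.62), and Postn at 1976 and 1254 CPM, a ratio of -0.66 (-0.70 to -0.61). Of 19 collagens, 0 passed the threshold and 15 had a ratio below 0, with a median of -0.15. Col1a1 and Col3a1 had ratios of -0.10 and -0.14. The library labelled DTX also had the larger share of Prg4-side members, among which most of these genes are low. What that share adds to the ratios was not tested. Of 16 provisional matrix and myofibroblast genes measured on each side, 8 had a ratio below 0 on the Prg4 side, with a median of 0.01, and 13 on the Mfap5 side, with a median of -0.19, against 2784 and 2979 of all 6781 genes. Acta2 was higher in the library labelled DTX on the Prg4 side, by 1.25 (0.76 to 1.87) on 49 and 69 UMIs, and lower on the Mfap5 side, at -0.55 (-0.72 to -0.40). Tnc, the matrix glycoprotein tenascin C, had 0.99 and -0.15, whereas Postn was below 0 on both sides, at -0.31 and -0.47. Of 14 collagens 6 had a ratio below 0 on the Prg4 side and 9 on the Mfap5 side, with medians of 0.19 and -0.09, and Col1a1 had -0.34 and 0.12.

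Genes outside the keratinocyte group were also lower, and 4 of them were picked out here after their values were seen. Ctla2a, a protease inhibitor, was at 312 CPM (301 to 322) in the library labelled PBS and 63.7 CPM (56.1 to 72.1) in the library labelled DTX. H19, an imprinted long non-coding RNA of fetal and repairing tissue, was at 185 and 40.2 CPM, with a UMI in 170 and 32 members, and Mest, likewise imprinted, at 45.8 and 20.2 CPM. Hmox1, haem oxygenase, which degrades haem, was at 2144 and 1117 CPM, a ratio of -0.94 (-0.99 to -0.89), just short of the threshold. In the Gpnmb Coch cells the ratios of these genes were -1.01, -0.89, -0.81 and -0.90, all in the same direction. Without the 2% of members richest in each gene the first 3 stood at -3.60, -2.53 and -1.07 in the fascia-like cells. By side, H19 had -0.57 (-1.30 to 0.06) among Prg4-side and -1.98 (-2.26 to -1.74) among Mfap5-side members, while Ctla2a was past the threshold downwards on both. Of 23 protease genes measured, 2 were lower, Mmp11 and Mmp10, and 2 higher, among them Mmp13, on 29 and 42 UMIs and with a ratio of -0.29 without the 2% of members richest in it.

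Metabolic and stress lists, of which those for cholesterol, glycolysis and mTORC1, the cell cycle and p53 follow themes the study drew from these same libraries and are no independent evidence, differed modestly. Cholesterol synthesis had the highest median of the pathway lists, 0.42, with 16 of 20 genes higher and 1, Idi1, an isomerase of the pathway, past the threshold at 10.8 and 27.3 CPM. The Gpnmb Coch cells had a median of 0.90 for the same list. Of 22 cell cycle genes 3 were higher (Ccnb2, Birc5 and Cenpa) and 1 lower (Rrm2), with a median of 0.15. In the p53 list 0 of 15 were higher and 1 lower, Perp, which is also a keratinocyte marker, with a median of 0.28. Immediate early and heat shock genes had 0 of 27 past the threshold and a median of 0.22, endoplasmic reticulum genes 0 of 27 and 0.16, and the 31 genes of glycolysis, hypoxia and mTORC1 0 and 0.14. Interferon-stimulated genes, higher in part against the Gpnmb Coch cells, had 0 of 26 past the threshold between the libraries and a median of 0.07. Of 24 of them measured on each side, 22 had a ratio above 0 on the Mfap5 side, with a median of 0.24, and 10 on the Prg4 side, with a median of -0.08. Over all 6781 genes these were 3802 and 3997, with medians of 0.04 and 0.07.

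**Figure D5:**
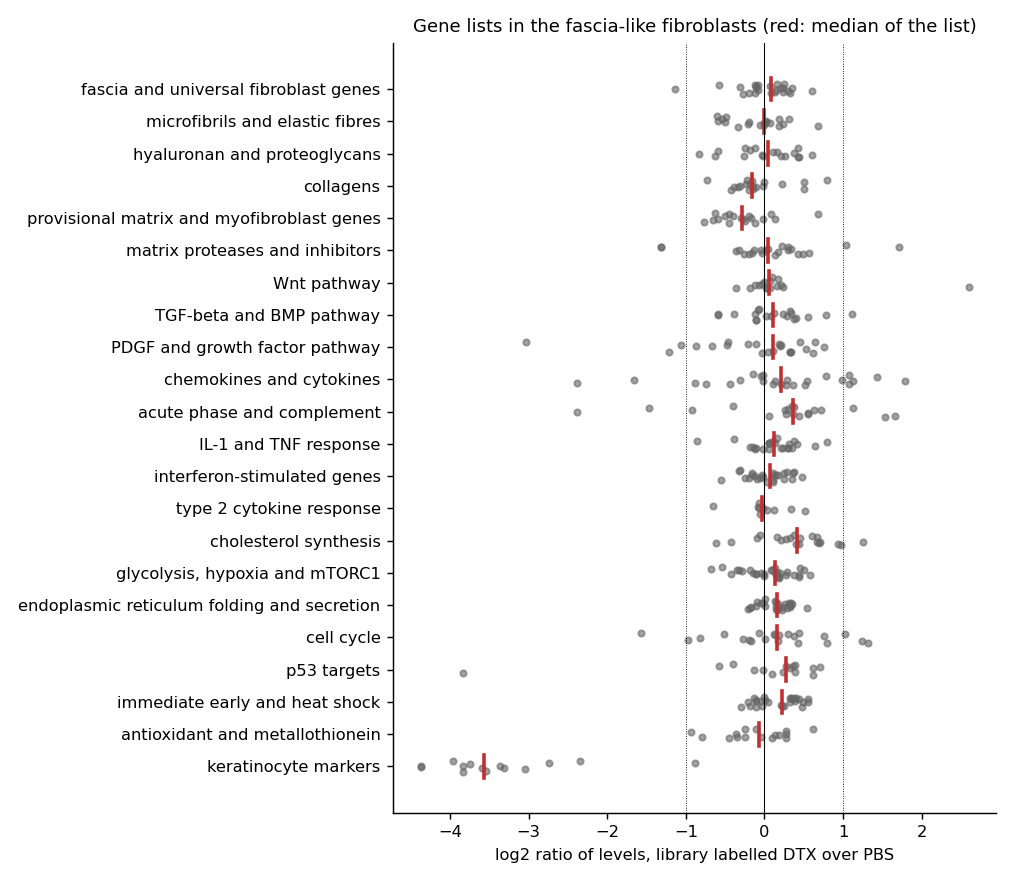
Log2 ratio of levels in the fascia-like fibroblasts of the library labelled DTX over that labelled PBS, 1 point per gene with at least 50 UMIs and a red mark at the median of each list, with dotted lines at -1 and 1. The keratinocyte markers have a median of -3.57 (-1.58 without keratinocyte-rich members), and the medians of the pathway lists lie between -0.29 and 0.42.

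The remaining pathway lists had 3 or fewer genes past the threshold. They were Wif1 in the Wnt list (24 and 71 UMIs in 6 and 5 members, and a ratio of 0 without the 2% richest), Tgfb1 in the TGF-beta and BMP list at 27.3 and 59.9 CPM, and in the growth factor list the lower genes Igfbp2, Hbegf and Nrg1. The lists of microfibrils, hyaluronan and proteoglycans, the IL-1 and TNF response, the type 2 cytokine response and antioxidant genes had 0 past the threshold in either direction, with medians between -0.07 and 0.13. Hmox1 belongs to the last of these. Of 9 upper dermis genes 2 were higher (Prss35 and again Wif1) and 1 was lower (Fabp5).

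Markers of other cell types differed in how they compared with the cells outside the gate. Macrophage markers summed to 186 CPM in the library labelled PBS and 129 CPM in the library labelled DTX, led by Cd74, against 12001 and 24220 CPM outside the gate. Endothelial markers summed to 20.2 and 15.2 CPM, led by Flt1, against 143 and 159 CPM, with Cldn5 at 0 in both and Pecam1 at 0 by the gate. Mural cell markers summed to 215 and 98.9 CPM, of which Ndufa4l2 made 179 and 66.8 CPM, against 331 and 344 CPM. These 3 lists and the keratinocyte markers above were lower in members than outside the gate. The gate limits Lyz2, Pecam1, Rgs5, Krt5 and Krt14, so this was set in part by the choice of cells. Markers of mesothelial and synovial lining cells, which also make lubricin, summed to 5.56 and 1.52 CPM against 8.07 and 2.65 CPM, with Lrrn4, Upk1b and Muc16 at 0 in both libraries. Adipocyte markers summed to 256 and 246 CPM through Lpl, close to the 270 and 248 CPM outside the gate, with Plin1, Lep, Cidec and Retn at 0. Tendon markers, at 263 and 372 CPM, were well above the 35.6 and 17.9 CPM outside the gate, led by Thbs4, while the tendon factor Scx was at 0 in the library labelled DTX. They were at 404 and 215 CPM in the Crabp1 and at 170 and 166 CPM in the Gpnmb Coch fibroblasts. The Crabp1 fibroblasts thus exceeded members in the library labelled PBS. Neutrophil, lymphocyte, skeletal muscle and Schwann or melanocyte markers each summed to at most 24.5 CPM in either library. Of these lists only the neutrophil one was higher in members of the library labelled DTX, at 9.88 and 14.4 CPM, and the others were lower. Neutrophil markers were at 41.6 and 232 CPM in the Gpnmb Coch cells and at 228 and 2405 CPM outside the gate. In members S100a9 passed the threshold upwards, on 40 and 33 UMIs. The general fibroblast genes summed to 81242 and 74170 CPM, a level that the gate, which used genes of that list, had set.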

How the data were processed

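UMI counts per gene and cell, as deposited by the authors, were made with Cell Ranger 6.1.1 per the file headers and processing notes (the methods name another release) against mm10, without further normalisation, for 12058 and 11031 barcodes (105511870 and 81858751 UMIs) in the libraries labelled PBS and DTX. The study states the larger of these numbers for its Mrc1-DTR wounds and the smaller for its controls, the reverse of the labels, which were kept here. The parts of fibroblasts and of macrophage-type cells, given in the report, differed in the direction of the labels as given. The methods name 2 technical replicates and no biological ones. Here cells were kept and chosen as stated in the report, with Python 3.11.15 and scipy 1.17.1, and UMIs were summed per set and library and scaled to 1000000 (CPM). Members, gene lists and comparisons were chosen with earlier results of these data known. Named genes were the highest and lowest ratios with at least 200 UMIs (against other sets, at least 100 per library), genes of the rule left out, and those past the threshold in each list. Of 601 listed genes 595 matched by symbol and 6 by synonym. Doublets were called with Scrublet, which marked 2 of 7188 cells in the library labelled DTX and thus did not work there, so an alternative left out the 8% of cells with the highest scores. The study's limit of 2000 genes per cell was not applied, since it leaves 38 and 4 members. The ratio script was tested on simulated data. No column of per-sample values was left unused, and the authors deposited no cell annotation used here.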

Additional observations from a re-analysis of the deposited data

Results flagged for a closer look

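Cxcl13, Mmp13 and Robo2 differed between the libraries in one direction in the fascia-like cells and in the other in the Gpnmb Coch cells, and the difference between the sets was not tested. Cxcl13 had a log2 ratio of 1.07 (0.96 to 1.19) in the fascia-like cells and -1.81 in the Gpnmb Coch cells, there on 54 UMIs in the library labelled PBS and 1 in the library labelled DTX. On the Prg4 side, where Cxcl13 is most abundant, its ratio was 0.33 (0.21 to 0.45), and on the Mfap5 side 1.67. Mmp13, a collagenase, had 1.71 on 29 and 42 UMIs in the fascia-like cells, all 42 within 6 cells, and -1.47 in the Gpnmb Coch cells on 62 and 2 UMIs. Without the 2% of members richest in it, the ratio of Mmp13 in the fascia-like cells was -0.29. Robo2, a guidance receptor, had -1.24 (-3.02 to -0.52) on 63 and 7 UMIs in the fascia-like cells and 0.78 (0.51 to 1.06) on 613 and 136 UMIs in the Gpnmb Coch cells. Reg1 and Reg3g also had opposite signs, but their ratios in the Gpnmb Coch cells had counting intervals that spanned 0, at -0.35 (-1.57 to 0.59) and -0.64 (-6.59 to 1.45).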

How the results depend on the processing

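Shares, counts past the threshold and list medians were recomputed under each alternative: 298 values stayed within counting error or 1.5 times the count and 27 moved. Of 253 list medians 9, from 7 lists, changed sign, each at most 0.11 from 0 in the report and 0.05 in the alternative. No paired analysis was possible because each group has 1 library. With at most 2000 genes per cell, members were 8.72% and 13.8% of gate cells and 1.51% and 0.151% of kept cells in the libraries labelled PBS and DTX, too few for gene ratios, which were not run. With at most 10% mitochondrial UMIs they were 7.90% of kept cells in the library labelled PBS. With at least 10 UMIs of Mfap5 and Prg4 they were 25.3% of its gate cells and 7.603% of its kept cells, and the immediate early median was 0.31. With members chosen after thinning to 3000 UMIs they were 47.2% of gate cells in the library labelled DTX, and the TGF-beta median was -0.044. Between the libraries, 10 CPM added gave 18 higher and 70 lower genes and at least 200 UMIs gave 28 and 78, with a hyaluronan median of 0.14. Against the Gpnmb Coch cells these settings gave 237 and 160, and 193 and 107. Lower genes numbered 103 without the top 8% of doublet scores and 106 without keratinocyte-rich members, a setting added after seeing the data. The keratinocyte median was -1.74 and -1.58 in these, -2.31 at 10% mitochondrial UMIs, -2.95 as a mean over cells, -2.38 with 10 CPM added and -2.50 without the 2% richest cells, also added later. For single genes 501 values stayed and 265 moved. With 1 library per group, differences between mice, libraries and treatments cannot be told apart, and low genes rest on few UMIs.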
